A study of Mus musculus with 36 samples.

Results

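The epithelium of fetal mouse mammary glands exposed to bisphenol A (BPA) was compared directly with the epithelium of glands exposed to 17α-ethinylestradiol (EE2), in 12 of the 36 arrays of the series. The members were all epithelium samples that received either compound: 6 BPA arrays and 6 EE2 arrays, each 6 made up of 3 ERα(+/+) and 3 ERα(−/−) fetuses, with genotype as a covariate and no vehicle array in the comparison. All fetuses were C57BL/6 females at E19, from matings of mice heterozygous for the ERα gene, so that the ERα(−/−) fetuses carried the germline deletion in every tissue. Dams carried osmotic pumps from E8 to E19 that delivered 250 ng/kg/day BPA or 10 ng/kg/day EE2 in 50% dimethylsulfoxide, the vehicle of the controls. The doses differ, so a difference between the compounds and a difference between their doses cannot be told apart here. The ducts of 1 inguinal mammary gland per fetus were laser-captured, and their RNA was amplified as cDNA and hybridised to Mouse Genome 430 2.0 arrays with 45101 probe sets. Each group came from 3 independent litters, but 1 fetus of each genotype was taken from a treated litter, so the 6 arrays of an exposure may represent only 3 dams.

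BPA is a bisphenol used in plastics that binds the estrogen receptors ERα and ERβ weakly, and EE2 is a synthetic steroid estrogen of contraceptive pills that binds both strongly. The receptors are ligand-activated transcription factors that recruit coregulators at target genes such as *Pgr* and *Greb1*. In the late fetus the mammary bud has grown into a small ductal tree under the control of the surrounding mesenchyme, with Wnt, parathyroid hormone-related protein and fibroblast growth factor signals, and ERα is known mainly from the mesenchyme at this stage.

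No probe set differed between BPA-exposed and EE2-exposed epithelium at an adjusted p under 0.05, with or without quantile normalization of the arrays. This was 0% of the 45101 probe sets, from a limma fit with Benjamini-Hochberg adjustment. The smallest adjusted p was 0.388 as deposited, for *Sardh*, encoding the mitochondrial enzyme sarcosine dehydrogenase (7.7 to 27.1 units after BPA and 1.9 to 5.7 after EE2; log2 change 2.30 ± 0.35, SE). It was 0.519 after quantile normalization, for *Shd*, encoding an adaptor protein with an SH2 domain (3 to 6.2 units after BPA and 12.3 to 37.1 after EE2; log2 change −2.77 ± 0.43). On leaving out each array in turn, 0 probe sets were called except without ERα(−/−) EE2 replicate 2, where there were 2, *Nr5a2* and a probe set with no single symbol, both under 50 units. Every signal of *Sardh* and *Shd* was also below 100 units, the level under which the study marked a transcript as not expressed. Signals are linear intensities in arbitrary units throughout, and every change is log2 of BPA over EE2.

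At an unadjusted p under 0.05 the direction of the differences turned on the normalization. As deposited, 2610 probe sets were higher after BPA (5.79%) and 364 were lower (0.807%), so 87.8% of them were higher. After quantile normalization, which gives every array the same distribution of signals, 1062 were higher (2.35%) and 1317 were lower (2.92%). The median change of all probe sets was 0.26 as deposited, with 71.2% of them above 0, and −0.00278 after quantile normalization, with 49.8% above 0. All 1062 probe sets that were higher after quantile normalization were also among the 2610, and all 364 lower ones were also among the 1317. The signals of the exposures did not overlap at 96 probe sets with BPA higher (0.213%) and at 12 with BPA lower (0.0266%). After quantile normalization these counts were 58 and 71.

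**Figure D1:**
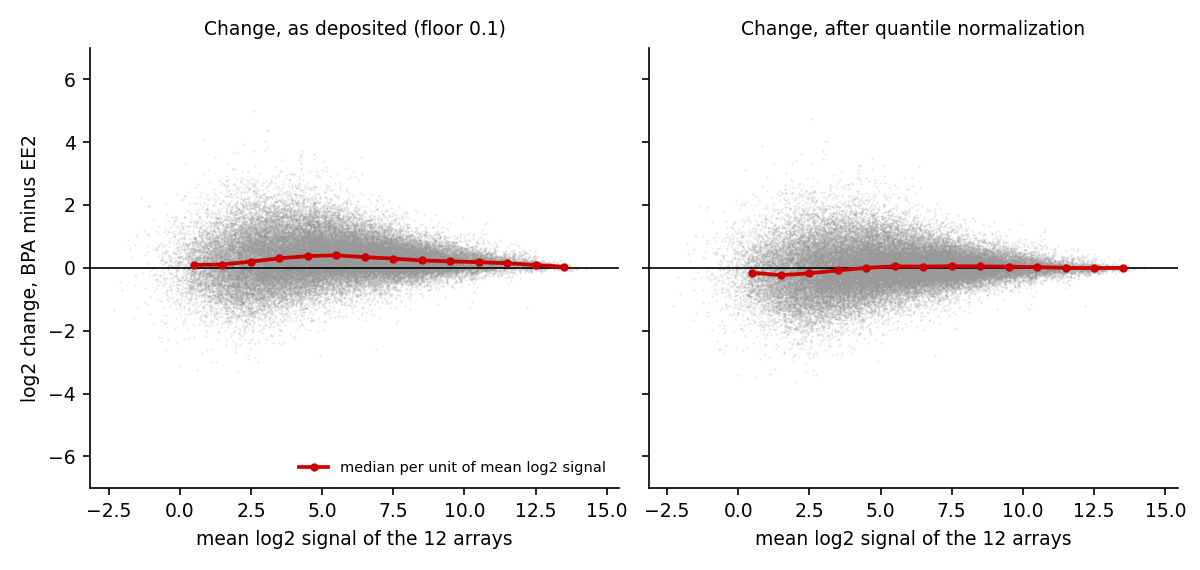
Change from EE2 to BPA of each of the 45101 probe sets (log2, vertical axis) against its mean log2 signal over the 12 arrays (horizontal axis), as deposited and after quantile normalization, with the median per unit of signal in red. The red line lies above 0 as deposited (median of all probe sets 0.26) and near 0 after quantile normalization (median −0.00278).

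The BPA arrays were brighter on the whole. The median signal of an array was 29.9 to 66.8 units after BPA (51.4 ± 12.7, SD, n = 6) and 25.5 to 64 after EE2 (40.7 ± 14.7, n = 6), and the ranges overlapped. The log2 difference of 0.37 had p = 0.075 in an exact permutation test, two-sided, over 400 relabellings within genotype, where the smallest possible p was 0.005, and p = 0.3 after adjustment over 9 array measures. It was 0.54 in ERα(+/+) and 0.20 in ERα(−/−) epithelium, a difference of effects with p = 0.535 in the exact permutation test. Genotype accounted for 51.3% of the variance of the log2 array median, with ERα(−/−) arrays brighter, and 6 vehicle arrays of epithelium had medians of 10.9 to 42.8. The first principal component of the 12 arrays carried 23.6% of the variance and had a Pearson correlation of 0.98 with the log2 array median, which is a description of arrays that share these signals. The 3′ to 5′ ratio of *Gapdh*, a sign of RNA quality, was 5.09 to 8.77 after BPA and 5.46 to 12.9 after EE2 (log2 difference −0.12, exact permutation p = 0.61), and that of b-actin was 1.02 to 1.14 and 0.976 to 1.15 (0.06, exact permutation p = 0.21). The part of array brightness or RNA quality in the changes was not tested beyond the quantile-normalized values given beside them.

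**Figure D2:**
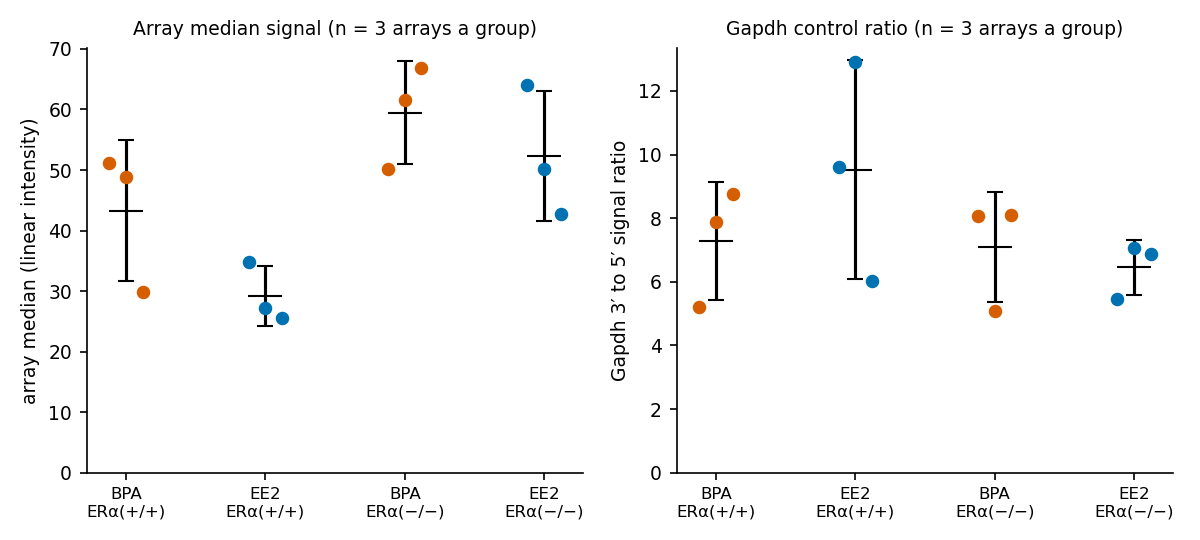
Median signal of each array and *Gapdh* 3′ to 5′ ratio of each array by exposure and genotype, with group means (n = 3 arrays a group). BPA arrays spanned 29.9 to 66.8 units and EE2 arrays 25.5 to 64, and the ratio spanned 5.09 to 8.77 and 5.46 to 12.9.

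The captured tissue carried the markers of mammary epithelium after both compounds. *Epcam*, an epithelial adhesion molecule, was at 4586 to 6839 units after BPA and 4501 to 6076 after EE2, against 150.3 to 1552 in the peri-ductal stroma of the same glands. *Krt8*, a luminal keratin, was at 1910 to 4085 and 1496 to 3697 units, against 36.5 to 300.4 in stroma. Genes of other cell types were present too. The fibroblast gene *Col1a1* was at 4366 to 8348 units in epithelium and 8516 to 12639 in stroma, and the myeloid gene *Tyrobp* was at 380.9 to 1224 and 1267 to 3296. *Adipoq*, the adipocyte hormone adiponectin, ran from 46.7 to 6821 units in epithelium and from 2957 to 7796 in stroma. Fewer cells of a type and less RNA per cell cannot be told apart in such bulk samples.

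*Esr1*, encoding ERα, did not separate the genotypes on these arrays. Its brightest probe set was at 18.4 to 142 units (median 38.8) in the 6 ERα(+/+) epithelium arrays and at 9.7 to 100.2 (median 31.8) in the 6 ERα(−/−) arrays. In stroma the ranges were 20.3 to 213.4 (median 83) and 13.9 to 81.8 (median 48.3). The ranges overlapped at this probe set in both tissues. The position of the 3 *Esr1* probe sets relative to the deleted part of the gene is not given in the sources used here, so these levels do not check the genotype labels.

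The genes with the clearest differences were described as follows, with no call on any of them. They had a geometric mean of at least 100 units in the higher exposure, an unadjusted p under 0.05 and a change of at least 2-fold in the same direction with and without quantile normalization. The rule was met by 141 probe sets higher after BPA and 14 lower, and the 12 genes with the smallest p in each direction were named. Since this contrast chose them, their values are a description and their directions support nothing. The adjusted p was 0.559 for all 12 higher genes and 0.689 to 0.756 for the 12 lower ones as deposited, and 0.678 to 0.836 and 0.797 to 0.925 after quantile normalization (limma).

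**Figure D3:**
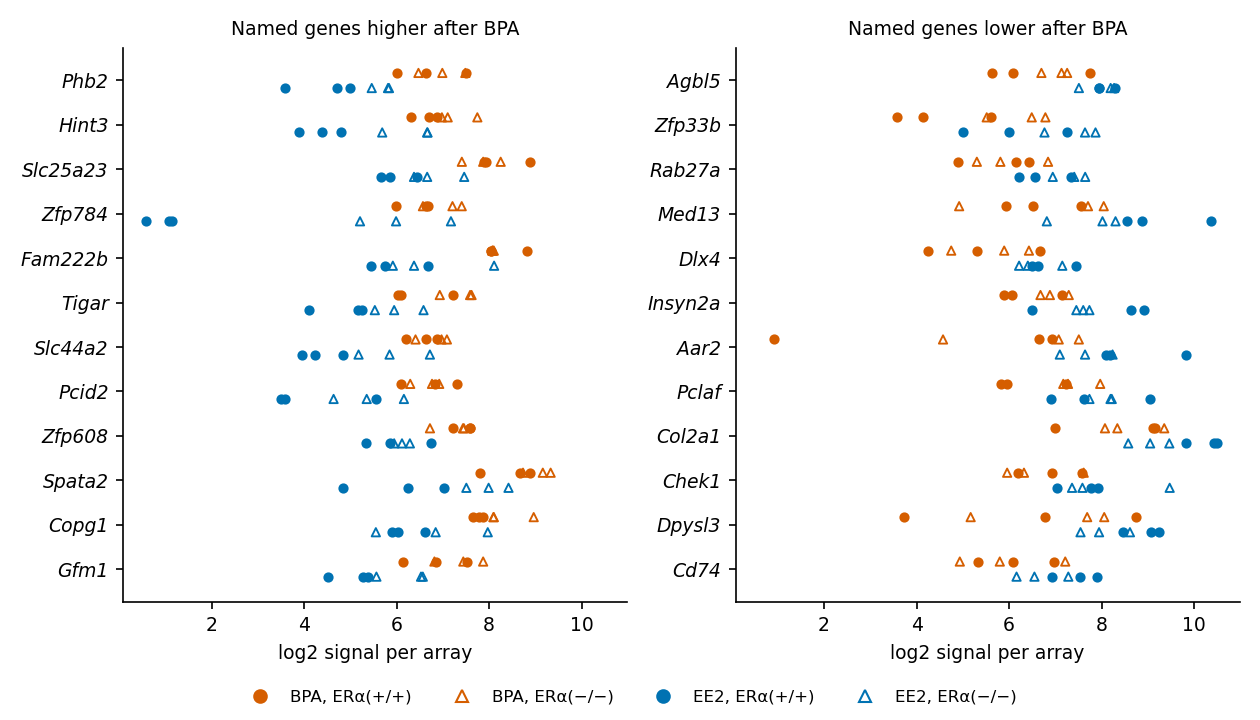
Log2 signal of the 12 named genes higher and the 12 lower after BPA in each of the 12 arrays, by exposure and genotype. Only *Phb2* had no overlap between BPA (64.6 to 181.3 units) and EE2 (12 to 57.1 units).

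*Phb2*, encoding prohibitin 2, a scaffold of the inner mitochondrial membrane that was also described as a repressor of estrogen receptor activity, was at 64.6, 113 and 181.3 units (lowest, median and highest) after BPA. After EE2 it was at 12, 37.9 and 57.1 units, a log2 change of 1.78 ± 0.39 as deposited and 1.44 ± 0.31 after quantile normalization. Every BPA array lay above every EE2 array, and *Phb2* was the only one of the 24 genes of which this held. *Slc25a23*, a mitochondrial carrier that exchanges ATP-magnesium for phosphate, was at 170.1, 240.2 and 475 units after BPA and 50.3, 84.8 and 176.2 after EE2 (1.63 ± 0.38). Its ranges overlapped only where the highest EE2 array passed the lowest BPA array. *Gfm1*, the mitochondrial translation elongation factor G, was at 70.4, 144.4 and 234.1 units after BPA and 22.8, 44.6 and 94.8 after EE2 (1.47 ± 0.37). *Tigar*, a phosphatase that slows glycolysis, was at 65, 136 and 196.8 units after BPA and 17.2, 42.1 and 95.8 after EE2 (1.48 ± 0.36). *Slc44a2*, a choline transporter-like protein, stood at 1.57 ± 0.39.

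*Copg1*, a subunit of the coatomer of Golgi vesicles, was at 200.9, 253.6 and 499.2 units after BPA and 46.9, 81.7 and 250.8 after EE2 (1.59 ± 0.40). *Spata2*, an adaptor that brings the deubiquitinase CYLD to tumor necrosis factor receptor complexes, was at 221.8, 447.7 and 643.4 units after BPA and 28.7, 155.7 and 342.3 after EE2 (1.76 ± 0.44). *Pcid2*, a component of the nuclear mRNA export machinery, was at 68.8, 111.5 and 158.8 units after BPA and 11.3, 32.9 and 71.4 after EE2 (1.91 ± 0.47). In *Copg1* only the highest EE2 array reached the BPA range, in *Spata2* the lowest BPA array lay below the highest EE2 arrays, and in *Pcid2* the highest EE2 array passed the lowest BPA array by a few units. The changes were 1.60 ± 0.37 for *Hint3*, a nucleotide-binding histidine triad protein, 1.28 ± 0.32 for the zinc-finger gene *Zfp608* and 1.81 ± 0.43 for *Fam222b*.

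The zinc-finger gene *Zfp784* had the widest gap, 3.22 ± 0.75, and its levels are given by genotype. In ERα(+/+) epithelium the 3 BPA arrays were at 100.1, 63.1 and 102.8 units and the 3 EE2 arrays at 2.1, 1.5 and 2.2. In ERα(−/−) epithelium the BPA arrays were at 169.8, 147.9 and 95 units and the EE2 arrays at 63.5, 37 and 144.5. All ERα(+/+) EE2 arrays were near the bottom of the scale, and the ERα(−/−) groups overlapped. The change was 5.51 ± 0.54 in ERα(+/+) and 0.94 ± 0.54 in ERα(−/−) epithelium, and the difference between genotypes was not called (adjusted p = 0.786, limma). The vehicle arrays ran from 3.1 to 100.1 units in ERα(+/+) and from 3.3 to 71 in ERα(−/−) epithelium, so low signals also occurred without either compound.

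*Zfp784* was the 1 probe set of 45101 (0.00222%) called within ERα(+/+) epithelium, with an adjusted p of 0.0262 in the limma fit of the 4 groups. The call was lost after quantile normalization (log2 change 4.95, adjusted p = 0.131), with 16 units added to every signal in place of the floor of 0.1 (log2 change 2.52, adjusted p = 0.202), and in a fit of the 6 ERα(+/+) arrays alone (log2 change 5.51, adjusted p = 0.612), a setting chosen after seeing the data. It was also lost on leaving out any ERα(+/+) BPA array, ERα(+/+) EE2 replicate 2 or 3, any ERα(−/−) BPA array, or ERα(−/−) EE2 replicate 1, with changes of 5.33 to 5.73 and adjusted p of 0.0594 to 0.223. Without ERα(+/+) EE2 replicate 1 the number of probe sets called within ERα(+/+) epithelium was 79, of which 76 were higher after BPA.

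Of the genes lower after BPA, *Med13*, a subunit of the kinase module of Mediator, was at 30.3, 139.4 and 264.3 units after BPA and 112.7, 345.8 and 1312 after EE2 (−1.71 ± 0.64). *Chek1*, the checkpoint kinase of replication stress, was at 62.2, 101.3 and 195.8 units after BPA and 130.4, 205.1 and 710 after EE2 (−1.09 ± 0.47). In both genes the ranges overlapped and a lone EE2 array held the highest signal. *Pclaf*, a factor that binds the replication clamp, was at 56.8, 146.7 and 250.7 units after BPA and 119.6, 253.1 and 525.2 after EE2 (−1.05 ± 0.43). *Aar2*, a splicing factor that assembles spliceosomal particles, was at 1.9, 111.8 and 182 units after BPA and 136.9, 282.4 and 905.8 after EE2 (−2.57 ± 1.02). The changes of the homeobox gene *Dlx4* (−1.18 ± 0.46) and the zinc-finger gene *Zfp33b* (−1.40 ± 0.48) were of similar size.

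*Rab27a*, a small GTPase of secretory vesicles, was at 29.7, 63.8 and 114.8 units after BPA and 74.2, 142.8 and 200.2 after EE2 (−1.11 ± 0.40). *Col2a1*, type II collagen of cartilage, was at 127.3, 439 and 654.4 units after BPA and 381.5, 809.5 and 1439 after EE2 (−1.14 ± 0.47). *Cd74*, the invariant chain of MHC class II of antigen-presenting cells, was at 30.6, 61.8 and 148.5 units after BPA and 71.6, 138.8 and 238.9 after EE2 (−1.005 ± 0.45). The exposures overlapped in all 3 genes. The differences were −1.27 ± 0.38 for *Agbl5*, a carboxypeptidase that trims tubulin tails, −1.78 ± 0.78 for *Dpysl3*, a cytoskeletal regulator of growth cones, and −1.15 ± 0.45 for *Insyn2a*, a protein of inhibitory synapses.

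Other probe sets of the same genes gave less. Of the 24 genes, 18 had further probe sets, 38 in all, of which 20 had the direction of the named one and 0 also had an unadjusted p under 0.05 in that direction. More of the 20 belonged to the higher genes than to the lower ones, and 71.2% of all probe sets were above 0 as deposited. *Tigar* and *Zfp608* were even over their probe sets (1.19 to 1.48 and 0.80 to 1.28). The probe sets of *Rab27a* ran from −1.11 to 2.74, those of *Chek1* from −1.09 to 1.39 and those of *Aar2* from −2.57 to 1.51, so these genes had no single direction. Only 1 of 5 probe sets of *Med13* (−1.71 to 0.50) and 1 of 3 of *Dpysl3* (−1.78 to 0.28) were below 0. Probe sets of *Fam222b*, *Spata2*, *Agbl5* and *Pclaf* also lay on both sides of 0. The other *Phb2* probe sets were also above 0, the lowest at 0.12.

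Vehicle-exposed epithelium, which entered only the alternative fit of all 18 epithelium arrays, was nearer to EE2 than to BPA in mean log2 signal for 8 of the 12 higher genes. It was nearer to BPA than to EE2 for 11 of the 12 lower genes. In both cases this was mostly the side with the lower signal, and the vehicle arrays had the lower medians given above. The contrast of BPA with EE2 chose these genes, and the share over all probe sets was not counted. The counts therefore do not show which compound departed from vehicle. *Phb2* was at 4.5 to 96.7 units in the 6 vehicle arrays, which covered the range of EE2 and part of that of BPA, and *Pcid2* at 1.4 to 177.7, which covered both.

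Peri-ductal stroma of the same glands gave the same contrast in tissue that the choice of genes had not used. Of the 12 genes higher after BPA in epithelium, 9 were above 0 in stroma, where 60.2% of all probe sets were above 0. At an unadjusted p under 0.05 in that direction there was 1 of 12, *Pcid2* (2.36 ± 0.77), against 4.72% of all probe sets. Of the 12 lower genes, 2 were below 0 in stroma, *Pclaf* (−0.88 ± 0.70) and *Cd74* (−1.20 ± 0.56), and *Cd74* had an unadjusted p under 0.05, against 1.26% of all probe sets. In level, *Cd74* was brighter in stroma (epithelium minus stroma −1.62 on the log2 scale, adjusted p = 0.0088, limma). Of all probe sets, 2.12% were brighter in stroma and 15.7% in epithelium at that level. *Rab27a*, *Med13*, *Dlx4*, *Pclaf*, *Col2a1* and *Chek1* of the lower genes were brighter in epithelium at an adjusted p under 0.05, with differences in level of 1.48 to 3.82, and so was *Zfp608* of the higher ones (1.02, adjusted p = 0.0349). With the gland as a block, a setting chosen after seeing the data, *Zfp608* was not called (adjusted p = 0.0837) and the others were. The naming rule asked for at least 100 units in epithelium and made no such demand of stroma. That favours a level above stroma, so the levels of the named genes are a description. None of the 24 changes differed between the tissues at an adjusted p under 0.05. Across the array 0 probe sets did (limma), with 1577 at an unadjusted p under 0.05 (3.5%) as deposited, 1859 (4.12%) after quantile normalization and 1919 with the gland as a block, again with 0 called.

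Within ERα(+/+) epithelium 3709 probe sets were higher after BPA (8.22%) and 456 lower (1.01%) at an unadjusted p under 0.05, with a median change of 0.38. Within ERα(−/−) epithelium 757 were higher (1.68%) and 411 lower (0.911%), with a median of 0.13, and 0 were called at an adjusted p under 0.05 (limma). After quantile normalization the counts were 1626 (3.61%) and 1580 (3.5%) in ERα(+/+) and 572 (1.27%) and 687 (1.52%) in ERα(−/−) epithelium, with 0 called in either. The difference between the genotypes' changes was called at 0 probe sets (limma), with 1971 at an unadjusted p under 0.05 (4.37%) as deposited and 1896 (4.2%) after quantile normalization. With 3 arrays a group this does not show that the genotypes respond alike.

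In separate fits of 6 arrays, the probe sets that differed in one genotype were looked up in the other, whose arrays had not been used. In ERα(+/+) epithelium 2316 probe sets were higher after BPA at an unadjusted p under 0.05 (5.14%) and 330 lower (0.732%), and in ERα(−/−) epithelium 1463 (3.24%) and 593 (1.31%). Of the 2316, 121 were also higher in ERα(−/−) epithelium, which was 5.22% against the 3.24% of all probe sets and 8.27% of the 1463. Of the 330 lower, 17 were also lower (5.15%, against 1.31%), which was 2.87% of the 593, and the same number, 17, were higher.

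After quantile normalization the same fits gave 1022 higher (2.27%) and 1115 lower (2.47%) in ERα(+/+) epithelium and 1140 (2.53%) and 1130 (2.51%) in ERα(−/−) epithelium. Of these, 50 were higher in both, 4.89% of the 1022 and 4.39% of the 1140. A further 70 were lower in both, 6.28% of the 1115 and 6.19% of the 1130, while 26 and 33 had opposite directions. The shares in both were above the background, and most probe sets that differed in either genotype had no counterpart in the other. The correlation of the genotypes' changes across probe sets was 0.06 both as deposited and after quantile normalization, and 0.06 and 0.05 over the 15061 probe sets with a signal of at least 100, a description in which probe sets are not independent replicates. The fetuses of the genotypes may share dams, as said above.

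Of the 45101 probe sets, 63 had the same direction at an unadjusted p under 0.05 in both genotypes with and without quantile normalization. The number expected by chance was not worked out, so this count alone does not show a difference shared by the genotypes. Of the 63, 6 had 1 gene symbol and at least 100 units: *Phb2*, *Pcid2*, *Spata2*, *Coq8a*, *Parp3* and *Chl1*. All 6 were higher after BPA, and since this contrast chose them their values are a description. *Coq8a*, an atypical kinase of coenzyme Q synthesis, was at 628.5, 752.9 and 1362 units after BPA and 182.7, 337.8 and 584.5 after EE2, with no overlap (1.33 ± 0.34 over both genotypes). *Parp3*, a poly(ADP-ribose) polymerase of DNA repair, was at 29, 150.8 and 440.2 units after BPA and 11.3, 16.1 and 104.3 after EE2 (2.46 ± 0.65). *Chl1*, a neural cell adhesion molecule, was at 35.2, 135.8 and 187.2 units after BPA and 4.5, 37.8 and 69.5 after EE2 (1.93 ± 0.54). *Parp3* and *Chl1* overlapped between the exposures. Both were brighter in stroma, with epithelium minus stroma differences in level of −2.14 (adjusted p = 0.00109, limma) and −2.11 (adjusted p = 0.0153).

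Receptors that bind BPA or EE2 came first among the gene groups, with 15 of 16 measured, each gene being read where its probe sets were brightest. All genes read in that way numbered 18194, of which 5.2% were higher and 0.676% lower at an unadjusted p under 0.05 as deposited, and 1.96% and 2.75% after quantile normalization. With each array centred on its own median, the median change of all genes was −0.13 rather than 0.24, and the medians of all groups below were under 0 except those of adipogenesis genes (0.29) and of endothelial (0.19), adipocyte (0.45) and erythroid (0.22) markers. *Esr1* was the only receptor higher after BPA at an unadjusted p under 0.05 as deposited, and 0 were lower. After quantile normalization 0 of the 15 were higher at that level and 1 was lower, *Esr2*. *Esr1* was at 31.7, 71.5 and 142 units after BPA, 9.7, 27.4 and 41.2 after EE2 and 1.1, 8.1 and 44.8 with vehicle. Its change was 1.41 ± 0.47 as deposited (adjusted p = 0.734) and 1.03 ± 0.51 after quantile normalization (adjusted p = 0.954). The other 2 *Esr1* probe sets gave 2.70 ± 1.03 and 0.26 ± 0.57, and in ERα(−/−) epithelium alone the brightest gave 1.43 ± 0.70. *Esr2*, encoding ERβ, was at 3.2, 7.9 and 26.8 units after BPA and 7.1, 19.7 and 39.1 after EE2, with a change of −0.95 ± 0.60 as deposited and −1.32 ± 0.58 after quantile normalization. Both estrogen receptor genes lay mostly below 100 units.

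The progesterone receptor *Pgr*, a target of ERα, was at 198.7, 430.9 and 649.5 units after BPA and 107.5, 336.7 and 919.8 after EE2 (0.24, 95% interval −0.83 to 1.30). The change was 0.91 (−0.11 to 1.93) for *Gper1*, the membrane estrogen receptor, and 0.71 (−0.15 to 1.57) for *Esrrg*, the estrogen-related receptor that binds BPA tightly. It was 0.33 (−0.56 to 1.22) for *Nr3c1*, the glucocorticoid receptor, 0.07 (−0.90 to 1.03) for *Thra*, a thyroid hormone receptor, and 0.05 (−1.11 to 1.20) for *Ahr*, the dioxin receptor. *Pparg*, the adipocyte regulator, ran from 4.5 to 1528 units after BPA and from 9.2 to 386.1 after EE2, and its change of 0.94 had an interval of −1.77 to 3.65. For 0 of the 15 receptors did the 95% interval stay within a 2-fold change either way, and for 2 after quantile normalization, so a 2-fold difference was not excluded by the intervals of the remaining receptors.

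Estrogen-responsive genes, 36 of 40 measured, had 0 members higher and 0 lower at an unadjusted p under 0.05 in either setting. Their median change was 0.17 as deposited and −0.04 after quantile normalization, against 0.24 and −0.01 for all genes. The interval lay within a 2-fold change for 11 of the 36, and for 14 after quantile normalization. *Ccnd1*, cyclin D1, stood at −0.12 (−0.72 to 0.48), within a 2-fold change. Of 28 estrogen receptor coregulators, 1 was higher after BPA at that level, *Ncoa1*, a p160 coactivator, at 192.2, 347.6 and 716.4 units after BPA and 106.6, 203.1 and 282.9 after EE2. Its change was 0.99 ± 0.39 as deposited and 0.73 ± 0.33 after quantile normalization, and the median of the group was 0.19.

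Enzymes of steroid and xenobiotic metabolism, 32 measured, had 1 member higher and 1 lower. *Hsd17b4*, a peroxisomal enzyme that also oxidises estradiol, was at 623.4, 673.5 and 851.3 units after BPA and 171.8, 386.1 and 697.4 after EE2 (0.86 ± 0.36). *Cyp2b10*, a cytochrome P450 of drug metabolism, was under 10 units in every array (−1.35 ± 0.61). Neither was called across the array, and the median of the group was 0.34 as deposited and 0.04 after quantile normalization. Both kept an unadjusted p under 0.05 after quantile normalization, and *Hsd17b1* (−0.82 ± 0.35) was then lower at that level too.

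The 6 genes that the study followed in epithelium, chosen by it on these samples, were read at its own probe sets. *Birc2*, an inhibitor of apoptosis, was at 271.5, 324.2 and 340.5 units after BPA and 218.7, 284.9 and 592 after EE2 (0.03, 95% interval −0.64 to 0.70). *Syvn1*, an ubiquitin ligase of the endoplasmic reticulum, was at 133.1, 193.8 and 234.3 units after BPA and 45, 91.5 and 147.6 after EE2. Its change of 1.15 (0.38 to 1.91) was not called (adjusted p = 0.696) and was 0.84 after quantile normalization. The change of *Syvn1* was 1.88 ± 0.41 in ERα(+/+) and 0.41 ± 0.41 in ERα(−/−) epithelium, and the difference between genotypes was not called (adjusted p = 0.9998, limma). The change was 0.36 (−0.46 to 1.18) for *Abl1*, a tyrosine kinase, 0.54 (−0.10 to 1.17) for *Zyx*, the adhesion protein zyxin, −0.11 (−0.97 to 0.74) for *Tgm2*, transglutaminase 2, and −0.10 (−1.01 to 0.82) for *Met*, the hepatocyte growth factor receptor. The intervals of *Birc2* and *Tgm2* lay within a 2-fold difference and those of the other 4 genes did not.

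Of 26 anti-apoptotic genes 1 was higher, *Syvn1*, and of 35 pro-apoptotic genes 2 were, both mitochondrial proteins that move to the nucleus. *Aifm1*, apoptosis-inducing factor, was at 594.7, 824 and 1133 units after BPA and 345, 533.4 and 646.8 after EE2 (0.69 ± 0.29), and *Endog*, endonuclease G, had a change of 0.96 ± 0.44. After quantile normalization these were 0.52 ± 0.26 and 0.77 ± 0.42, and *Syvn1* but 0 pro-apoptotic genes passed in limma. These counts were near the shares of all genes given above, as were the group medians of 0.23 and 0.24.

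Mammary bud and ductal signalling genes, 52 measured, had 2 higher and 0 lower. *Ntn1*, netrin-1, a guidance cue of ducts, was at 21.1, 68.2 and 111.1 units after BPA and 18.7, 31.1 and 56.3 after EE2 (1.02 ± 0.36). *Wnt10b*, an early Wnt ligand of the bud, was at 2.4, 12.8 and 47 units after BPA and 1, 2.2 and 5.7 after EE2 (2.07 ± 0.74), all under 100 units. Its change was −0.09 ± 0.59 in ERα(+/+) and 4.22 ± 0.59 in ERα(−/−) epithelium, and the difference between genotypes was not called (adjusted p = 0.786, limma). Of 28 Notch pathway genes, the Notch target *Hey2* (10.9 to 50.8 units after BPA and 0.8 to 12.3 after EE2) and *Hes6*, a Hes family member that opposes Hes1 (131.2 to 249.5 and 46.7 to 188.3 units) were higher, by 2.62 ± 0.70 and 0.83 ± 0.37. Genes of lumen formation and polarity, 36 measured, had *Rab8a*, a GTPase of apical transport, higher (0.84 ± 0.39) and *Rab27a*, described above, lower. After quantile normalization *Ntn1* (0.68 ± 0.30) and *Hey2* (2.28 ± 0.76) still had an unadjusted p under 0.05, and *Wnt10b* (1.67 ± 0.78), *Hes6* (0.53 ± 0.36) and *Rab8a* (0.64 ± 0.37) did not. In that setting *Edar* of the bud genes (−0.88 ± 0.40) was lower at an unadjusted p under 0.05. Of the polarity genes, *Scrib* (−0.66 ± 0.30) and *Rab27a* (−1.41 ± 0.40) were lower. None of these was called across the array, and the medians of the groups were 0.23, 0.20 and 0.17.

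Luminal markers, 27 measured, had 2 higher members. *Krt7*, a simple epithelial keratin, was at 40.9, 49.8 and 115.4 units after BPA and 2.2, 17.9 and 78.1 after EE2 (1.62 ± 0.66), and *Ovol1*, an epithelial zinc-finger repressor, had a change of 1.00 ± 0.38. After quantile normalization 0 luminal markers passed an unadjusted p of 0.05 in this limma fit. The change was 0.09 (−0.45 to 0.64) for *Epcam* and 0.15 (−0.56 to 0.86) for *Krt8*, both within a 2-fold difference. Of 25 basal markers *Cnn1*, the smooth muscle protein calponin, was higher, at 17 to 51.6 units after BPA and 0.6 to 79.8 after EE2 (2.54 ± 0.83). It was 2.16 ± 0.82 after quantile normalization, and the median of the basal markers was 0.26, and 0.01 after quantile normalization.

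Proliferation genes, 47 measured, had 2 higher members and a median of 0.09. *Ccne2*, cyclin E2, was at 63.7, 127 and 171.9 units after BPA and 22.7, 59.9 and 117.9 after EE2 (1.16 ± 0.38), and its partner *Cdk2* had a change of 0.86 ± 0.36. After quantile normalization *Ccne2* stood at 0.84 ± 0.33 and *Cdk2* at 0.58 ± 0.34, the latter no longer at an unadjusted p under 0.05. Ribosomal protein genes, 34 measured, and splicing factors, 46 measured, had 0 members past an unadjusted p of 0.05 in either direction, with medians of 0.08 and 0.14. The intervals excluded a 2-fold change for 30 of the 34 and 32 of the 46. Oxidative phosphorylation genes, 54 measured, had a median of 0.34, with *Cox8a* (0.77 ± 0.34) and *Sdhd* (0.76 ± 0.34), subunits of complexes of the respiratory chain, higher. After quantile normalization the median was 0.19 and 0 of the 54 passed in limma, and 42 of the 54 intervals lay within a 2-fold change.

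Adipogenesis and lipid genes had a median of 0.66, the highest of the pathway groups, with 3 of 41 higher and 0 lower. *Agpat2*, an acyltransferase of triglyceride synthesis, was at 120.4, 576.4 and 977.4 units after BPA and 14.4, 170.8 and 808.8 after EE2 (1.94 ± 0.80). *Ebf2*, a factor of brown fat precursors, was at 7.3, 201.2 and 368.7 units after BPA and 1.7, 41.4 and 84.9 after EE2 (2.25 ± 0.94), and *Dgat2*, the enzyme of the last step of triglyceride synthesis, had a change of 1.21 ± 0.50. After quantile normalization these were 1.68 ± 0.75, 2.00 ± 0.86 and 0.92 ± 0.46, and *Dgat2* no longer passed. The median of the group was 0.45 after quantile normalization and 0.17 without ERα(+/+) BPA replicate 1. Adipocyte markers went the same way. The summed signal of the 12 adipocyte markers was 4887, 25944 and 40556 units after BPA and 2814, 15897 and 22934 after EE2, against 24310 to 44504 in stroma. Their median change was 0.82, with 0 of 12 past an unadjusted p of 0.05 in the limma fit, and 0.12 without ERα(+/+) BPA replicate 1, the array with the highest sum. By genotype the median was 0.37 in ERα(+/+) and 0.89 in ERα(−/−) epithelium, and −0.0077 and 0.81 after quantile normalization. The medians of the adipogenesis and lipid genes were 0.54 and 0.73, and 0.17 and 0.67 after quantile normalization. The ERα(−/−) sums were 25457 to 29943 units after BPA and 15121 to 22934 after EE2, and the ERα(+/+) sums overlapped. A difference between genotypes was not tested for these groups. The part of adipocyte RNA in the lipid genes was not tested.

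Leukocyte markers had a median of 0.24, as all genes had, with 24 of 29 above 0, and 0.02 after quantile normalization. At an unadjusted p under 0.05, 2 of 29 were lower and 0 higher in both settings, and both belong to MHC class II. *H2-Aa*, its α chain, was at 51.1, 100 and 228 units after BPA and 108.6, 186.6 and 585.9 after EE2 (−1.09 ± 0.49, and −1.37 ± 0.54 after quantile normalization), beside *Cd74* above. The groups overlapped in both genes. The summed signal of the 29 leukocyte markers was 5447 to 13115 units after BPA and 4803 to 14501 after EE2, against 21039 to 44813 in stroma, and the change of *Tyrobp* was 0.05. Among endothelial markers 0 of 23 passed in either direction (limma), with a median of 0.56 that was 0.29 after quantile normalization and 0.17 without ERα(+/+) BPA replicate 1. By genotype the endothelial median was 0.28 in ERα(+/+) and 0.73 in ERα(−/−) epithelium, and −0.14 and 0.62 after quantile normalization.

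**Figure D4:**
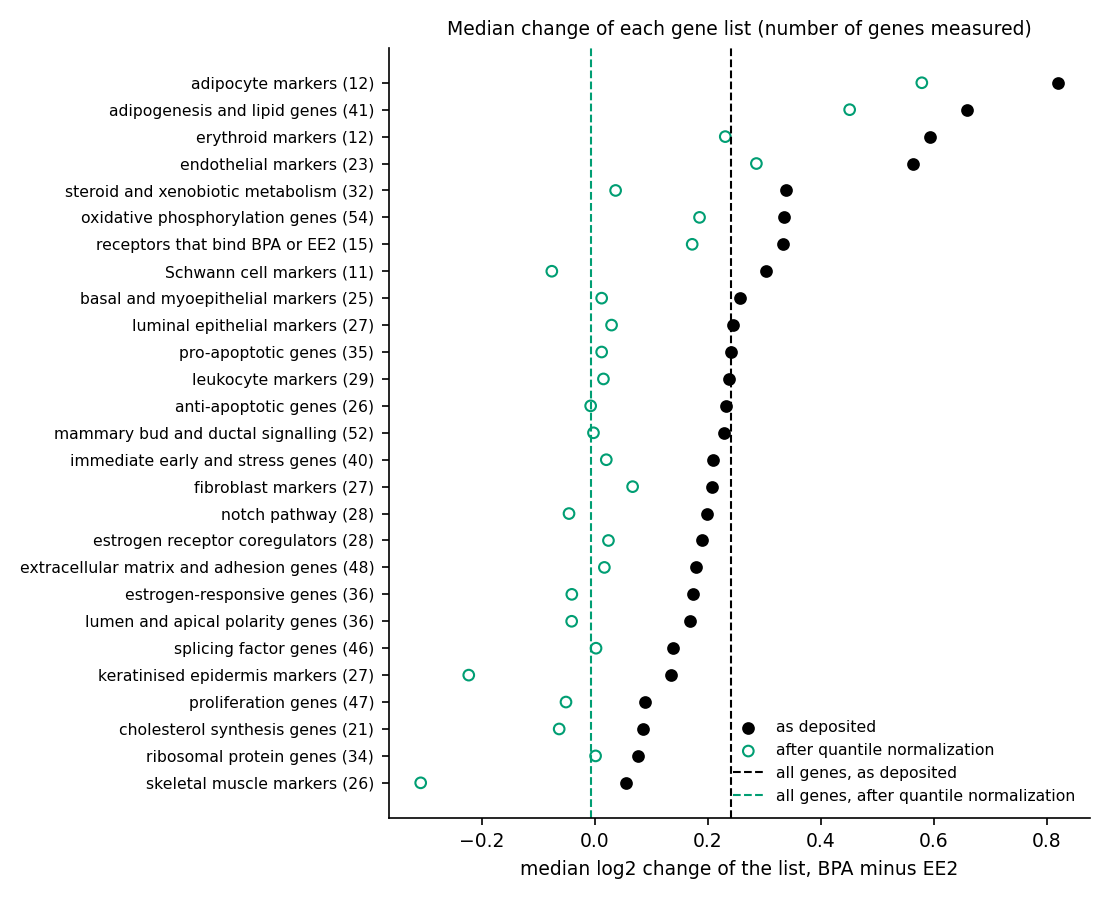
Median log2 change from EE2 to BPA of each gene list, as deposited and after quantile normalization, with the number of genes measured. The median of all 18194 genes was 0.24 and −0.01, and adipocyte markers (0.82 and 0.58) and adipogenesis genes (0.66 and 0.45) lay to the right of it.

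How large a difference the 12 arrays could exclude depended on the signal. The 95% interval of the change lay within a 2-fold difference either way for 6954 probe sets (15.4%), and for 9949 (22.1%) after quantile normalization. By mean signal the share was 1.46% under 10 units, 7.04% from 10 to 100, 27.7% from 100 to 1000 and 76.1% at 1000 or more. The median standard error fell along the same bins from 0.73 to 0.58, 0.40 and 0.30. The whole interval lay beyond a 2-fold difference for 153 probe sets, 96 under 10 units, 57 from 10 to 100 and 0 above. After quantile normalization the number was 99. The intervals are not adjusted for the 45101 probe sets, and 0 were called, so a 2-fold difference was not shown for any of them. Where the interval did not lie within a 2-fold difference, its absence was not shown either.

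**Figure D5:**
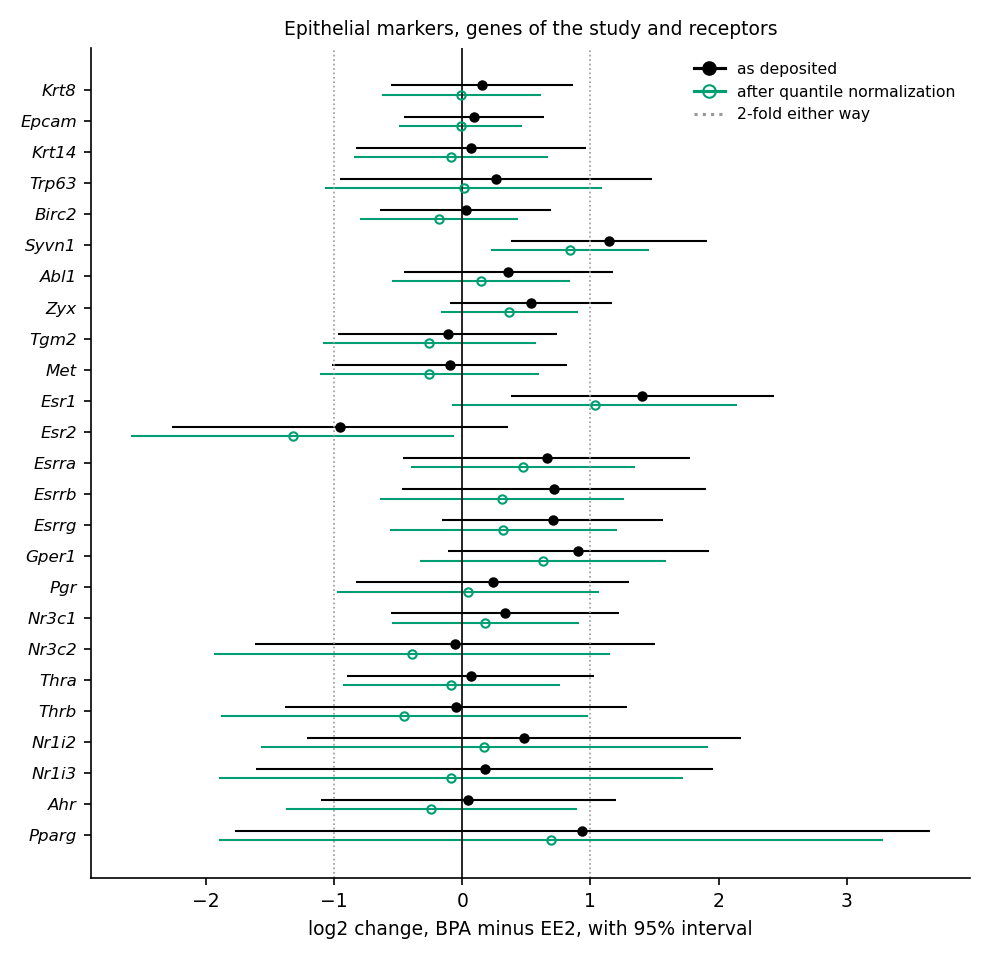
Log2 change from EE2 to BPA with its 95% interval for epithelial markers, genes of the study and receptors, as deposited and after quantile normalization. The interval of *Epcam* (−0.45 to 0.64) lies within a 2-fold change and that of *Pparg* (−1.77 to 3.65) does not.

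Promoters of the named genes were searched for the core of the estrogen response element, since both compounds act on receptors that bind it. The windows ran from 250 bases before to 50 after the start of each gene in RefSeq (GRCm38.p6). The core GGTCA, on either strand, was in the windows of 3 of the 11 higher genes with a promoter (27.3%), 3 of the 8 lower ones (37.5%) and 43.6% of 27025 genes. The full element GGTCANNNTGACC was in 0 of either set and in 20 of all genes (0.074%). A match is a description of letters in the window and not a binding site.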

How the data were processed

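The labels and the study's methods state that RNA of laser-captured ducts was extracted with the PicoPure kit, amplified as cDNA with the Ovation Pico WTA System, and hybridised to 1 array per sample. The deposited values are linear intensities per probe set, with CEL files made by GCOS. The authors' methods name RMA in Partek, but the deposited intensities hold zeros and are not on a common distribution, so the scaling behind them is not given in the sources used here. Signals were floored at 0.1 (18 values in the 12 arrays) and converted to log2, with and without quantile normalization. Exposure was tested with genotype as a covariate in limma 3.58.1 (R 4.3.3, statmod 1.5.0), with Benjamini-Hochberg adjustment over 45101 probe sets. Genotypes were compared in a fit of 4 groups and tissues in a fit with stroma. The members, the gene lists and the rule for naming genes were chosen with earlier results of these data known. A gene was read at its brightest probe set in 27 lists (838 of 927 entries measured), and named genes at the probe set with the smallest p. Of the probe sets, 34958 had 1 gene symbol in the platform annotation, 932 several and 9211 none, and only the first were named. The table held 0 columns of no sample. The scripts were tested on simulated data. Array precision is limited by the number of arrays, since intensities carry no counts.

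Replicate numbers were checked for pairing. Deviations of BPA and EE2 arrays with the same number had correlations of −0.0657 to 0.154, with 1 of 6 above 0.1, and those of genotypes with the same exposure and number 0.00530 to 0.0944, with 0 of 6 above 0.1. The same number gave the closest match in 2 of 6 pairs of exposures and in 5 of 6 pairs of genotypes. Between genotypes the mean correlation was 0.047 for the same number and −0.023 for other numbers. Epithelium and stroma with the same number had −0.0388 to 0.149, with 4 of 12 above 0.1 and for 9 of 12 epithelium arrays the closest stroma array of the group had the same number. Both tissues of a fetus came from 1 gland, but no label states that the number marks it, so the gland was used as a block only in alternatives. The labels give the numbers no meaning beyond replicate, so they were not used as pairs. Alternatives were another offset, median centring, a signal filter of 100, array weights, all 18 epithelium arrays, the Welch test of the methods, a replicate block and leaving out each array.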

Additional observations from a re-analysis of the deposited data

Results flagged for a closer look

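Among the 48 results examined, which make 96 groups of 6 arrays, 12 groups held an array far from the other 5 on the linear scale. Chance marks about 1 in 20 groups of normally distributed values. Linear signals of both genotypes together need not be so distributed, and each of the 12 arrays was the highest of its group. The count therefore does not show an excess of such arrays. *Fam222b* was at 454.4 units in ERα(+/+) BPA replicate 3 and 262.5 to 274.5 in the other BPA arrays, and at 275.8 units in ERα(−/−) EE2 replicate 1 and 43.3 to 102.4 in the other EE2 arrays. *Copg1* was at 499.2 units in ERα(−/−) BPA replicate 2 (the others 200.9 to 274.5) and at 250.8 units in ERα(−/−) EE2 replicate 1 (the others 46.9 to 114.9). *Esrra*, an estrogen-related receptor, was at 397.1 units in that same EE2 array (the others 36.7 to 169).

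Of the genes lower after BPA, *Med13* was at 1311.9 units and *Aar2* at 905.8 in ERα(+/+) EE2 replicate 2, against 112.7 to 468.4 and 136.9 to 301.8 in the other EE2 arrays. *Chek1* was at 710 units in ERα(−/−) EE2 replicate 2, against 130.4 to 244.3. *Birc2* was at 592 units in ERα(+/+) EE2 replicate 1 (the others 218.7 to 354.6) and *Abl1* at 500.1 in ERα(+/+) EE2 replicate 3 (the others 130 to 252.2). The mineralocorticoid receptor *Nr3c2* and the thyroid hormone receptor *Thrb* were at 51.1 and 50.7 units in ERα(−/−) EE2 replicate 3, against 2.2 to 13.6 and 7.2 to 17.4.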

How the results depend on the processing

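The 1 call of the main fits, *Zfp784* within ERα(+/+) epithelium, kept its direction in every alternative. The balance of higher and lower probe sets at an unadjusted p under 0.05 turned round with quantile normalization and with median centring. The count of probe sets higher after BPA at an unadjusted p under 0.05, 2610 as deposited, was 1062 with quantile normalization, 913 with median centring, 985 with a signal filter of 100, 1646 with all 18 epithelium arrays, 1710 with the methods' t-test (0 after Benjamini-Hochberg) and 1785 to 3482 on leaving out each array. The count of lower ones, 364, was 1317, 1322 and 39 under the first 3 of these, 234 with 16 added to each signal, and 310 to 448 on leaving out each array. After quantile normalization the filter gave 426 higher (from 1062) and 231 lower (from 1317), and leaving out each array gave 870 to 1392 and 1081 to 1516. The filter tests fewer probe sets, and otherwise the cause was not tested.

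Called probe sets numbered 0 to 2 on leaving out each array, in either normalization. The 2 appeared without ERα(−/−) EE2 replicate 2 and were *Nr5a2* (4.49, adjusted p = 0.0331, limma) and 1 probe set without a single symbol, both under 50 units. Within ERα(+/+) epithelium the 1 call became 0 with quantile normalization, 16 added, or the 6 ERα(+/+) arrays alone (chosen after seeing the data), and ran from 0 to 79 on leaving out each array, with 79 (76 higher, 3 lower) without ERα(+/+) EE2 replicate 1. Counts stayed at 0 for ERα(−/−) epithelium and for the difference between genotypes, and ran from 0 to 1 for the difference between tissues, with 1 (*Nudcd1*, adjusted p = 0.0493, limma) without stroma ERα(−/−) EE2 replicate 3. The difference in log2 array median was 0.30 to 0.49. Intervals within a 2-fold change, 6954, numbered 27412 with 16 added, which shrinks low signals, 3597 with all 18 arrays and 4694 to 7554 on leaving out each array.

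With the replicate number as a block, 2620 probe sets were higher, 370 lower and 0 called (limma), and 1126, 1359 and 0 after quantile normalization, so the block changed no call. With the gland as a block between tissues, 0 changes differed and 6 rather than 7 named genes were brighter in epithelium. With a random block for arrays of 1 exposure and number, which may share a dam, 2354 were higher and 327 lower, with 0 called. The 24 named genes kept their direction in every alternative, which their choice favours, and 56 values of receptors and study genes, none called, crossed 0. Depth cannot be read from intensities, and below 100 units few intervals excluded a 2-fold change.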

Other observations

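Of 40 immediate early and stress genes, *Hspa1a*, the inducible heat shock protein, was at 38.7, 80.2 and 158.6 units after BPA and 0.8, 26.2 and 47.5 after EE2 (log2 change 2.12 ± 0.89), and *Fosl1*, an AP-1 subunit, had 2.5 to 38.9 units after EE2 and 5.7 to 36.1 after BPA (1.62 ± 0.71). Of 27 genes of keratinised epidermis, *Ivl*, involucrin of the cornified envelope, was at 14.3, 18.1 and 27.8 units after BPA and 0.9, 4.5 and 16 after EE2 (2.07 ± 0.54), and *Krt77*, an epidermal keratin, had a change of 0.97 ± 0.40. All had adjusted p of 0.599 to 0.756 in limma, and after quantile normalization 0 of the 40 and only *Ivl* of the 27 (1.66 ± 0.55) were higher at an unadjusted p under 0.05. In that setting 1 of the 27 was lower at that level. *Krt1*, a defining keratin of epidermis, was at 6.5 to 55.2 units after BPA and 4.9 to 232.5 after EE2.

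Extracellular matrix and adhesion genes, 48 measured, and cholesterol synthesis genes, 21 measured, had 0 members past an unadjusted p of 0.05 in limma, with medians of 0.18 and 0.09. Of 27 fibroblast markers *Ogn*, the matrix proteoglycan osteoglycin, was higher at that level, at 86.3, 182 and 301.2 units after BPA and 46.9, 72.2 and 164.8 after EE2 (1.09 ± 0.44, adjusted p = 0.752), and was not at that level after quantile normalization (0.85 ± 0.40). Of 12 erythroid markers *Rhag*, a red cell membrane protein, was higher at that level (1.69 ± 0.74, 0.1 to 20.6 units in all arrays), and 0 of 11 Schwann cell markers and 0 of 26 skeletal muscle markers passed. The skeletal muscle gene *Acta1* was under 10 units in 10 of the 12 arrays and at 493.8 in ERα(−/−) BPA replicate 1 and 1307 in ERα(−/−) EE2 replicate 3.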
